A study of Mus musculus with 2 samples.

Results

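H3K36me3, the histone H3 protein with a trimethylated lysine 36, was compared between Dicer KO and Dicer WT mouse mesenchymal stromal cells. All 5050 H3K36me3 events of the series were taken, out of 21418 events over 3 marks: 1709 events with more reads in KO and 3341 with more reads in WT. An event is a position where the authors' software placed reads of one genotype in excess of the other. The cells of both genotypes were immortalized, monoclonal lines grown in medium with serum, so a difference between the genotypes and a difference between the clones cannot be told apart. The labels title these cells fibroblasts. They describe 1 sample per genotype, for acetylated lysine 27 of histone H3 (H3K27ac), and none for H3K36me3. For this mark each list gives 1 value per genotype, whether replicates were pooled is not stated, and no replicate error or test between genotypes can be given.

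H3K36me3 is laid down along the bodies of genes while they are transcribed. The methyltransferase SETD2 travels with elongating RNA polymerase II, so the mark builds up past the promoter and covers exons and introns, often in broad stretches. It differs in this from H3K4me3, which sits at promoters, and from H3K27ac, which marks active promoters and enhancers. Dicer cuts microRNA precursors into mature microRNAs, which bind messenger RNAs and lower their level or translation.

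The let-7 microRNAs are among the microRNAs that Dicer makes, and the Igf2bp and Nr6a1 genes described below are known let-7 targets. Mature let-7 sequences are shown as background only, and a link between let-7 and the H3K36me3 events was not tested. The microRNAs themselves were not measured in these data. Capitals mark the seed, bases 2 to 8, the stretch that pairs with targets. It is the same in all 9 let-7 and miR-98 sequences looked up, of which 4 are shown (RefSeq, GRCm38.p6).
mmu-let-7a-5p: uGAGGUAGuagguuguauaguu
mmu-let-7b-5p: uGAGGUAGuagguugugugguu
mmu-let-7g-5p: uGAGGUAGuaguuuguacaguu
mmu-miR-98-5p: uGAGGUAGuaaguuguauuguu

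The number of reads behind an event sets its precision. The median KO event had 40 KO reads (quartiles 30 and 57), and the median WT event had 73 WT reads (53 and 103.1). The genotype with fewer reads had a median of 9.4 scaled reads at KO events and 18.7 at WT events. Scaled reads are the reads of that genotype after the authors multiplied them to match the other library, by 0.575 for WT and by 1.697 for KO as recovered from the values. Before scaling, it had at most 3 reads at 72 KO events and 383 WT events, and none at 4 and 27 of them. Library totals are not known. The KO list is on the scale of the KO reads and the WT list on that of the WT reads, so read numbers are not compared between the lists. The KO list came from the program GPS and the WT list from GEM. Differences in number or shape between the lists and differences between the programs therefore cannot be told apart. Intervals in parentheses are 95% exact intervals that cover counting error only, with reads taken as independent molecules. Intervals of shares take events or runs as independent, which neighbouring events are not, and can be too narrow.

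Positions are in mm9, and the gene names beside them have limits. No mm9 annotation was used: 14 genes were placed from memory of where they lie, and were not looked up. They were picked after the events near them had been seen, and their windows were set with those events in view, in 2 cases to end before a neighbouring event or to enclose a run. Other loci that were looked at are not described. For each gene only the chromosome was compared with RefSeq, and it was the same for 14 of 14, which is a weak check. How much of a gene its events cover, and whether they lie in exons or introns, is not given. Widening each window by 10 kb on both sides added 1 event at Igf2bp2 (20 in place of 19, ratio 18.4) and none at the other 11 genes with events.

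Events often lay side by side, in runs. Events at most 5 kb from the next were joined into a run. In the KO list 41.5% of events (710 of 1709) were in runs of 3 or more events, and in the WT list 50.97% (1703 of 3341). These events came from 155 KO and 379 WT runs and are not independent, so no interval is given. Single events made up 39.1% of the KO list and 30.4% of the WT list. Runs of 5 or more events numbered 50 in KO and 125 in WT, and runs of 10 or more numbered 9 and 14.

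Runs of 3 or more events had a median length of 3584 bp in KO (quartiles 1869 and 6143) and 2963 bp in WT (1399 and 5251). Together they covered 729.7 kb in KO and 1488 kb in WT, and 12 KO runs and 24 WT runs were longer than 10 kb. Their median density was 1.17 events per kb in KO (0.705 and 1.91) and 1.52 in WT (0.857 and 2.42). Neighbouring events within a run were a median of 762.5 bp apart in KO and 614 bp in WT, and 432 of 720 steps in KO and 1152 of 1636 in WT (70.4%) were at most 1 kb. The quartiles of both lists overlapped widely, and the order of the medians was not kept: among events with a −log10 q of 5 or more, runs were a median of 2263 bp long in KO and 2802 bp in WT, with 1.61 and 1.58 events per kb. So no order in length or density between the lists is read from these values. The plot of runs shows both lists.

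**Figure D1:**
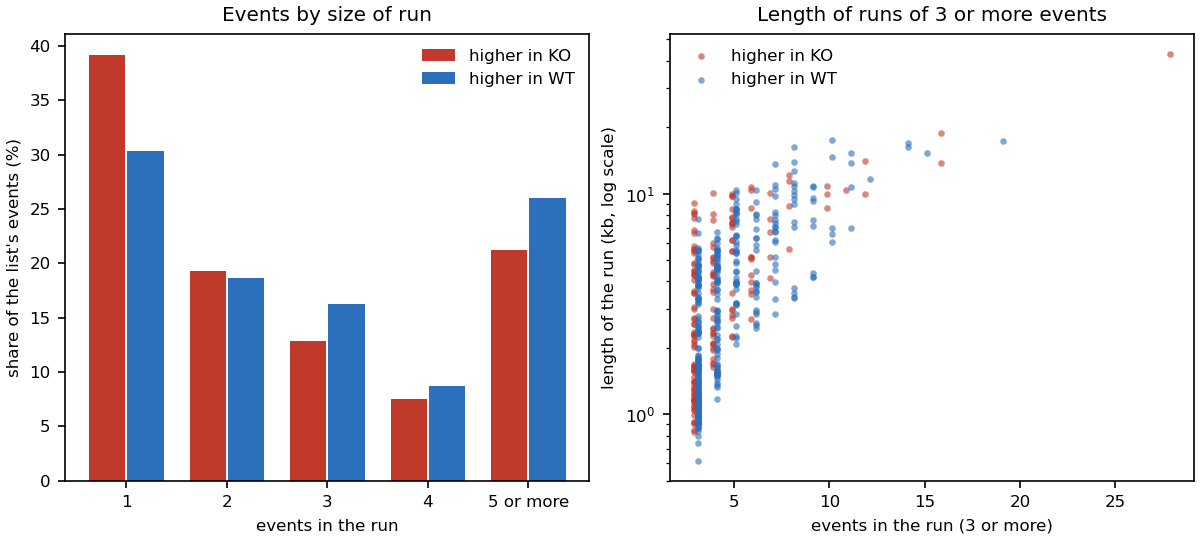
Left: share of each list's events (%) by the number of events in their run, KO list in red and WT list in blue. Right: length of each run of 3 or more events (kb, log scale) against its number of events, 1 point per run, with the lists set slightly apart; the 28-event KO run of 42.8 kb stands at the upper right.

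Events in runs of 5 or more had higher median reads and ratios than single events in both lists. The ratio of an event is its reads in the higher genotype over the scaled reads of the other. In the KO list the median ratio was 3.62 for the 669 single events and 4.56 for the 363 events in runs of 5 or more, with median reads of 32 and 53.6. In the WT list it was 3.20 for 1014 single events and 4.50 for 868 events in runs of 5 or more, with median reads of 61 and 88.55. Events in runs of 3 and of 4 had median ratios of 4.60 and 4.76 in KO, above those in runs of 5 or more. In WT these medians were 3.86 and 3.84. From single events to runs of 5 or more, median scaled reads of the lower genotype changed less, from 8.6 to 11.5 in the KO list and from 18.7 to 19.2 in the WT list. Within a run of 5 or more events, the highest event ratio was a median of 1.94 times the lowest in 49 KO runs and 2.38 times in 121 WT runs whose events all had reads in both genotypes.

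Among the KO loci with names, those placed at the let-7 targets Igf2bp2 and Igf2bp3 had the largest ratios. Both genes encode RNA-binding proteins that bind messenger RNAs and are known from embryonic tissues. At Igf2bp2 on chromosome 16, 19 events lay between 22058983 and 22156424, a span of 97.4 kb. Their reads ran from 31 to 96 per event in KO and from 1.1 to 6.9 scaled reads in WT, so every KO value lay above every WT value. Summed, KO had 1118 reads and WT 60.8 scaled reads, and the ratio was 18.4 (15.0 to 22.6). Single events had ratios of 5.96 to 46.1. The separation of the genotypes is not particular to this locus, as listed events have an excess by selection. It also held at Nr6a1, with a ratio of 2.89 (lowest KO value 31, highest WT value 27.5). It did not hold at Tgm2 (23 and 43.4).

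At Igf2bp3 on chromosome 6, 18 events lay between 49057352 and 49159581. Reads were 26.6 to 72 per event in KO and 0.8 to 5.7 in WT. The sums were 914 and 49.3 reads, a ratio of 18.5 (14.8 to 23.3). The events stood at both ends of the span of 102.2 kb, with a gap of 55.3 kb without a listed event between them.

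Igf2bp1 on chromosome 11, the third gene of the family, had a lower ratio. Its 10 events between 95834218 and 95865207 had 27 to 79.7 reads in KO and 2.9 to 22.1 in WT, a summed ratio of 5.17 (4.38 to 6.15). The intervals of these genes cover counting error only, and the loci were picked with their values known, so no difference between the genes is read from them. The events lay in 3 runs over 30.99 kb.

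Nr6a1, an orphan nuclear receptor of the early embryo, had the smallest ratio of the 4 let-7 targets that were placed here and had events. On chromosome 2, 10 events between 38608145 and 38632812 had 31 to 89.3 reads in KO and 8 to 27.5 in WT, a ratio of 2.89 (2.51 to 3.34). They spanned 24.7 kb. In the window placed at Hmga2, a chromatin protein and another known let-7 target, both lists had 0 events. A list holds only events past the authors' threshold, so this gives no level for the gene. Known let-7 targets were not looked up as a set, so nothing is read here about them as a group.

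Windows placed at genes of secreted and membrane proteins held the 3 KO runs with the most events. The longest run of the list was placed at Htra1, a secreted serine protease that acts on matrix proteins: 28 events on chromosome 7 from 138088351 to 138131146, over 42.8 kb. Reads per event ran from 28 to 88 in KO and from 3.4 to 20.8 in WT, a summed ratio of 4.05 (3.68 to 4.47) with event ratios of 2.37 to 9.71. Tgm2, a transglutaminase that cross-links proteins, had 20 events between 157942210 and 157970363 on chromosome 2. They had 23 to 135.7 reads in KO and 5.7 to 43.4 in WT, a ratio of 4.27 (3.85 to 4.73), with event ratios of 3.09 to 6.58.

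The neighbours Tmem176a and Tmem176b, which encode membrane proteins, had the KO events with the most reads among the named loci. Between 48782169 and 48795935 on chromosome 6, 16 events had 38.4 to 227 reads in KO and 5.2 to 35.6 in WT. The highest, at 48783741, had 227 KO reads and 35.6 scaled WT reads, a ratio of 6.38 (4.79 to 8.57). WT reads also exceeded the expected number there, which was 21.2.

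Of all KO events, 51.5% were at least 4-fold higher in KO. At the named loci this held for 19 of 19 events at Igf2bp2, 18 of 18 at Igf2bp3, 8 of 10 at Igf2bp1, 15 of 16 at Tmem176a and Tmem176b, 15 of 20 at Tgm2, 15 of 28 at Htra1 and 2 of 10 at Nr6a1. The loci were picked with their values known, so nothing is read from these counts.

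**Figure D2:**
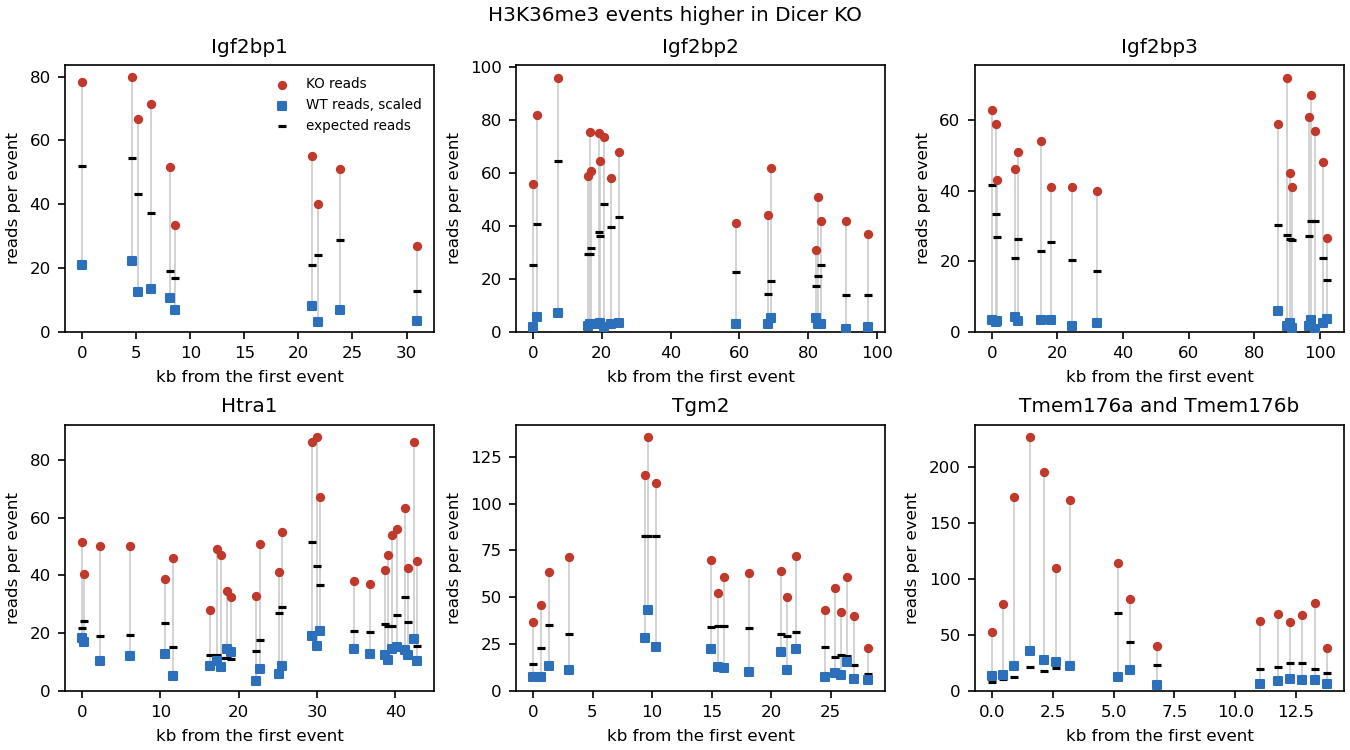
H3K36me3 reads per event (y axis) against distance from the gene's first event in kb (x axis) at 6 loci of the KO list. Red points are KO reads, blue squares WT reads scaled by the authors, black bars the authors' expected reads; each vertical line joins the 2 genotypes of 1 event. At Igf2bp2 and Igf2bp3 the WT squares stay between 0.8 and 6.9 reads along the whole span.

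Some KO runs chosen by size or ratio have no gene name here. At 80300458 to 80304448 on chromosome 16, 6 events gave the largest ratio of KO runs of 3 or more events, 58.2 (29.2 to 124). Each had 35 to 65 KO reads and 0 to 1.7 scaled WT reads. A pair of runs on chromosome 17, from 74232033 and from 74251369, held 12 and 11 events over 9.96 and 10.3 kb, with ratios of 4.76 (4.03 to 5.63) and 5.15 (4.44 to 5.97). At 137438213 to 137448150 on chromosome 6 the ratio over 10 events was 6.55 (5.63 to 7.64). The 5 smallest ratios of such KO runs were 2.28 to 2.57, led by 76079483 to 76081180 on chromosome 15 (1.86 to 2.79). The densest KO run of 5 or more events, 58641660 to 58643901 on chromosome 12, had 2.23 events per kb and a ratio of 8.02 (6.01 to 10.9).

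The WT event with the largest −log10 q, 63.4, lay at the window placed at Alpl. The gene encodes tissue-nonspecific alkaline phosphatase, an enzyme of bone mineralization and a marker of cells on the way to osteoblasts. On chromosome 4, 23 events lay between 137297154 and 137350869, in 2 runs with a gap of 29.6 kb between them. Reads per event ran from 47 to 282 in WT and from 0 to 25.5 scaled reads in KO, so every WT value lay above every KO value. WT had 2766 reads in all and KO 191.1 scaled reads, a ratio of 14.5 (11.9 to 17.6). At the event of the largest q, at 137302305, the values were 282 in WT and 11.9 in KO.

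Acta2 and Tnc had few events with large ratios. At Acta2, smooth muscle alpha actin, 6 events between 34325244 and 34328225 on chromosome 19 had 63 to 139.9 reads in WT and 0 to 11.9 in KO. Their summed ratio was 16.3 (10.7 to 26.2). At Tnc, the matrix protein tenascin C, 3 events at 63701485 to 63707037 on chromosome 4 had 74 to 250.5 reads in WT and 3.4 to 9.7 in KO, a ratio of 21.2 (11.7 to 40.4). At both loci every WT value lay above every KO value.

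A pair of homeobox transcription factors had fewer events still. Emx2 had 2 events, at 59538466 and 59539811 on chromosome 19, with 221.1 WT and 19.2 scaled KO reads (ratio 11.5, 6.49 to 24.1). Meis2 had 1 event, with 88.7 and 17.6 reads (5.04, 2.72 to 11.3).

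Of all WT events, 43.5% were at least 4-fold higher in WT. At the named loci this held for 23 of 23 events at Alpl, 6 of 6 at Acta2, 3 of 3 at Tnc, 2 of 2 at Emx2 and 1 of 1 at Meis2, all picked with their values known. In the windows of the 12 genes with events, 0 held events of the opposite direction. Over all events, 1.52% of KO events and 0.868% of WT events lay within 50 kb of an event of the other list, so this is not particular to these windows. In the window placed at the Dicer1 gene itself both lists had 0 events, so they hold no check of the deletion for this mark.

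**Figure D3:**
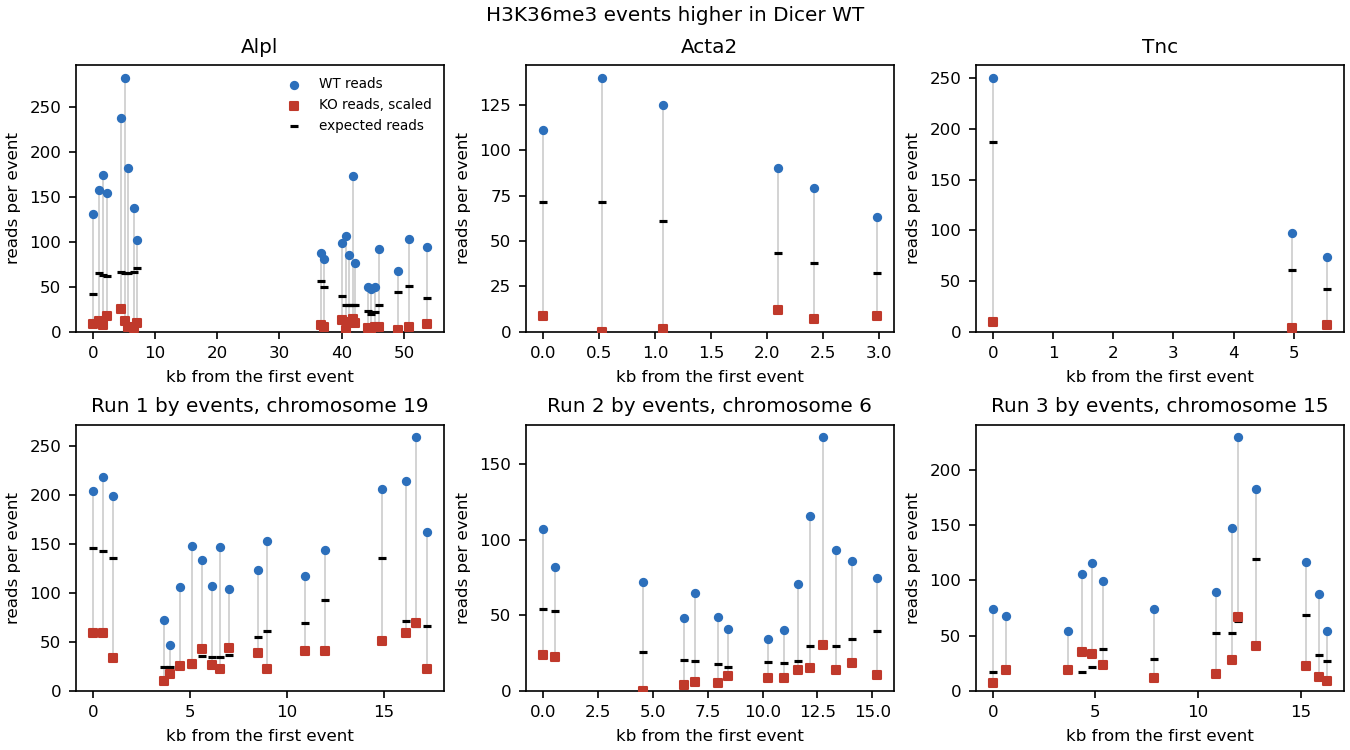
H3K36me3 reads per event (y axis) against distance from the first event in kb (x axis) at 3 named loci of the WT list (top) and in its 3 runs with the most events (bottom). Blue points are WT reads, red squares KO reads scaled by the authors, black bars the authors' expected reads, and each vertical line joins the genotypes of 1 event; at Alpl the WT points lie between 47 and 282 and the KO squares between 0 and 25.5.

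The WT runs with the most events were chosen by that count and are given by position. The first, at 28356513 to 28373747 on chromosome 19, had 19 events with 47 to 259.9 reads in WT and 9.6 to 69.6 in KO, a ratio of 4.04 (3.65 to 4.49). The second, at 84025760 to 84040970 on chromosome 6, had 15 events with 34 to 168 WT and 0 to 30.5 KO reads, a ratio of 6.03 (4.97 to 7.39). The next, at 32713044 to 32729335 on chromosome 15, had 14 events with 54 to 229.8 WT and 6.8 to 66.9 KO reads, a ratio of 4.37 (3.77 to 5.09). In the runs on chromosomes 19 and 15 the genotypes' values overlapped between events, so that some events had fewer WT reads than others had KO reads.

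Further WT runs without a gene name were chosen by events, ratio or density. The 12 events at 50862730 to 50874365 on chromosome 9 had 46 to 113.5 WT and 0.5 to 11.9 KO reads, so no value of the genotypes overlapped, and single ratios reached from 3.87 to 118. On chromosome 6, the ratio was 6.42 (5.20 to 8.06) for 11 events at 38675319 to 38686059. The largest ratio of WT runs of 3 or more events was 28.9 (14.6 to 67.7), over 6 events at 43588657 to 43594483 on chromosome 18, with 0 KO reads at 3 of them. The 5 smallest were 2.15 to 2.29, led by 188447427 to 188449398 on chromosome 1 (1.75 to 2.66). The densest WT run of 5 or more events, 102757586 to 102760438 on chromosome 15, had 7 events at 2.45 per kb and a ratio of 11.4 (7.62 to 17.8).

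No KO event lay within 10 kb of a WT event, and the closest pair was 12651 bp apart, at 115310338 (30 KO and 10.9 scaled WT reads) and 115322989 (116.1 in WT, 43.3 scaled in KO) on chromosome 6. Within 50 kb of an event of the other list lay 26 KO events (1.52%) and 29 WT events (0.868%). The median distance to the other list was 1240.5 kb for KO events and 2177 kb for WT events. The lists differ in length and in their chromosomes, so these medians do not compare the genotypes. How many such events unrelated lists would have was not worked out, so nothing is read from these counts.

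The deposited lists give each H3K36me3 event its own expected number of reads, which differs from place to place. What the authors' software took it from is not given in the sources used here. Its median was 17.8 in the KO list (quartiles 12.5 and 26.9, range 4.1 to 687.2) and 36.1 in the WT list (25.6 and 53.5, range 8 to 355.3). The lists are on different read scales, so these medians are not compared. The higher genotype had a median of 2.13 times the expected reads in KO (1.82 and 2.63) and 1.88 times in WT (1.64 and 2.29). The other genotype had 0.535 and 0.529 times the expected reads. It exceeded the expectation at 133 KO events (7.78%) and 268 WT events (8.02%).

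Expected reads rose with the reads of the higher genotype, with Spearman's rho of 0.829 across 1709 KO events and 0.812 across 3341 WT events. With the reads of the lower genotype rho was 0.623 and 0.629. Events of 1 list share a library and neighbouring events share reads, so these are descriptions. Listing also tied the higher genotype to the expectation, as q follows the weaker p-value, described below. Its reads were at least 1.13 times the expected at every KO event and 1.20 times at every WT event. The rho of the higher and of the lower genotype are therefore not compared, and the medians of 2.13 and 1.88 carry the same limit. Expected reads also changed within runs: over runs of 5 or more events the highest was a median of 2.02 times the lowest in KO and 2.04 times in WT.

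Each deposited event has a p-value against the other genotype and a Poisson p-value. The order of the deposited −log10 q followed the weaker of both, with rho of 1.0 to 3 digits in each list, against 0.689 and 0.627 for the p-value against the other genotype alone. The Poisson p-value was the weaker at 803 KO events (46.99%) and at 2067 WT events (61.9%). These events had larger ratios between the genotypes than the rest, a median of 5.0 against 3.49 in KO and 4.37 against 2.93 in WT. They had fewer reads per expected read, 1.83 against 2.56 in KO and 1.71 against 2.39 in WT. The split is made by these same comparisons and tends to give both directions by itself, so nothing is read from them. As q follows the weaker p-value, an event with a large ratio could rank low where the expected number was high. At Tnc the event at 63701485 had 250.5 WT and 9.7 KO reads, and 187.4 were expected.

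The events farthest above the expectation were not those with the largest ratios between genotypes. In WT, the event at 51943468 on chromosome 13 had 334 reads where 12.7 were expected, and KO had 94.7 scaled reads there, 7.46 times the expected. Its ratio was 3.53 (2.64 to 4.75). At 145311738 on chromosome 3, the WT event with the most reads, 495 WT and 245 scaled KO reads stood beside an expected 24.6. In KO, the event at 41136094 on chromosome 12 had 78.7 reads where 5.3 were expected, against 22.0 in WT. In these places both genotypes were above the expected number. The 3 KO events with the most reads, at 3004615, 3026962 and 3027593 on chromosome 9, had 778.8 to 2317 reads, against 599 to 687 expected. Their ratios were 2.21 to 2.75, below the list's median of 4.06.

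**Figure D4:**
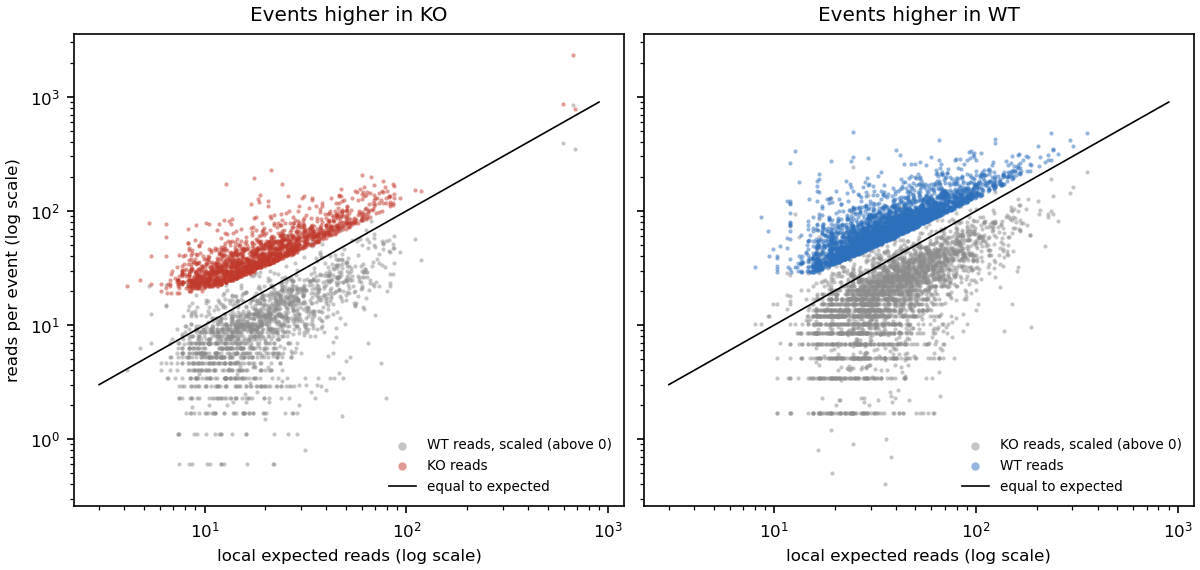
Reads per event (y axis, log scale) against the authors' local expected reads (x axis, log scale), left for the KO list and right for the WT list. Coloured points are the higher genotype, grey points the scaled reads of the other (values of 0 left out), and the line marks equality; the coloured points lie above the line and most grey points below it.

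The balance of directions differed between chromosomes, and so did the expected reads of H3K27ac events. Chromosome 9 held 624 WT and 22 KO events, and chromosome 12 held 24 WT and 192 KO events. By runs of 3 or more events the counts were 68 WT against 2 KO on chromosome 9, and 1 against 19 on chromosome 12. For H3K27ac, the median expected reads of KO-higher events were divided by those of WT-higher events, relative to the median chromosome. This ratio of expected reads was 0.632 on chromosome 9 and 1.27 on chromosome 12. It compares lists of different events and is not a measured background of each genotype. Chromosomes 4, 19 and X, with 52 KO and 348 WT, 21 and 183, and 6 and 130 events, had ratios of expected reads of 0.881, 0.889 and 0.879. Chromosomes with like ratios of expected reads could differ in balance. Chromosomes 15 and 16 both had 1.04, with KO shares of 27.3% and 58.6%. Chromosome 6 had 1.11 with a KO share of 35.8%, and chromosome 13 had 0.966 with 47.8%. No measure over all chromosomes is given, and the part of such chromosome-wide differences in the H3K36me3 counts was not tested.

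Median event ratios on chromosomes with at least 40 events ranged from 3.59 (chromosome 12) to 5.36 (chromosome 17) over 16 chromosomes in the KO list. With fewer KO events, chromosomes 9, 14, 19 and X had 3.58, 4.28, 8.48 and 4.97. In the WT list the medians ranged from 3.03 (chromosome 5) to 4.85 (chromosome 6) over 19 chromosomes, with 3.31 on chromosome 9. The authors' threshold cuts ratios from below (lowest 2.03 in KO and 1.81 in WT), so their spread is not set against that of the counts. Alpl and Tnc lie on chromosome 4, and Acta2 and Emx2 on chromosome 19.

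**Figure D5:**
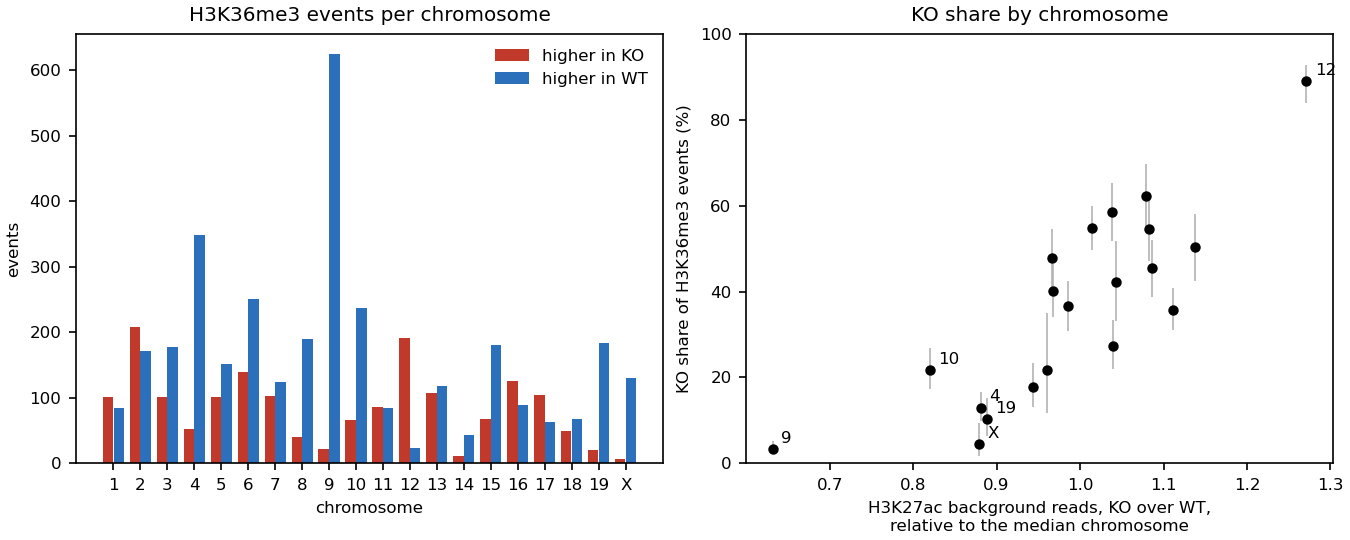
Left: number of H3K36me3 events per chromosome, KO list in red and WT list in blue. Right: KO share of events (%) with its 95% exact interval, which takes events as independent, 1 point per chromosome. The x axis, labelled background reads, is the median expected reads of KO-higher over WT-higher H3K27ac events, relative to the median chromosome. Chromosome 9 (3.41%) and chromosome 12 (88.9%) are the ends of both axes.

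Few H3K36me3 runs touched events of the other marks, counted within 1 kb of the run. In KO, 7.38% of 989 runs had an H3K27ac event of the same direction (73 runs, 5.83 to 9.19) and 1.42% an H3K4me3 event (14 runs, 0.776 to 2.36). In WT these were 2.17% with H3K27ac (37 of 1705, 1.53 to 2.98) and 5.87% with H3K4me3 (100 runs, 4.80 to 7.09). Among runs of 5 or more events, 19 of 50 KO runs had H3K27ac (interval 24.7 to 52.8%) and 4 of 50 had H3K4me3 (8%). Of 125 such WT runs, 23 had H3K4me3 (18.4%) and 8 had H3K27ac (6.4%). Longer runs also cover more sequence, and the lists of the other marks differ in length, with most H3K27ac events in KO and most H3K4me3 events in WT. Events of the opposite direction stood beside 2 KO runs for H3K4me3 and 0 for H3K27ac, and beside 1 and 10 WT runs.

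The windows of Igf2bp1, Igf2bp2 and Igf2bp3 held 8, 8 and 4 H3K4me3 events and 4, 6 and 6 H3K27ac events, all higher in KO. Htra1 held 5 H3K27ac events higher in KO and 0 H3K4me3 events. Alpl held 3 H3K4me3 events higher in WT and 0 H3K27ac events, while Acta2 and Tnc held both marks, all higher in WT.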

How the data were processed

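The members, lists, loci and the rule of the scale search were chosen with earlier results of these data known. Per the submitters' processing notes the build is mm9 and TopHat 1.4 is named without a role. GPS (KO list) or GEM (WT list) gave each event, per the file headers and names, an estimated count of the higher genotype and a scaled signal of the other and of the expected reads. The deposited fold is their ratio, and the deposited −log10 q starts at 2. The deposited shape score was not used. No count model fits lists with 1 value per genotype.

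The factor between genotypes was recovered as the largest step (0.3 to 3, every 0.0005) whose whole multiples held, within 0.06, at least 0.9 of the best share of control values. They held 96.3% in the KO list and 92.4% in the WT list. Ratio intervals are exact conditional binomial (Clopper-Pearson) intervals of unscaled reads, as are those of shares. The search rule was settled after 2 other rules had returned smaller steps. Scale search, runs and intervals were tested on simulated data.

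Named were, per list, the 10 runs with the most events, the 5 with the largest and smallest ratios, the 5 densest, and the 5 events leading by q, by reads and by reads over expected; the text gives a selection. The last rule was added after the data were seen. The gene lists set out for this work could not be looked up without an mm9 annotation, so no counts over them are given. In their place 14 genes were placed from memory, in windows written to 5 kb and set with the events in view. More were looked at; 10 further names were dropped, most because their placement leaned on remembered positions of another build. Versions: Python 3.11.15, NumPy 2.4.6, SciPy 1.17.1, pandas 2.3.3, matplotlib 3.10.9.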

Additional observations from a re-analysis of the deposited data

How the results depend on the processing

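No paired analysis was possible because each list gives 1 value per genotype, which also leaves no replicate to omit. All alternatives started from the lists as deposited, KO from GPS and WT from GEM. The parts of the program and of library totals in the KO share were therefore not tested. The KO share of H3K36me3 events, 33.8%, stayed below 50% under every alternative run, with values of 19.95% at −log10 q 5 or more, 17.3% at 50 reads in the higher genotype, 25.6% at 50 unscaled reads over both, 35.7% without chromosomes 9 and 12, 36.7% with runs counted once and 37.7% for events at least 4-fold apart, the last chosen after seeing the data. With the floor of 50 reads put on the WT scale in both lists, also added after seeing the data, the share was 32.7%, within the interval of the main value, so the fall to 17.3% was not seen with the floor on 1 scale. Event counts fell by construction, in KO to 326, 563 and 1014 under the first 3 of these and in WT to 1308 under the first, and runs to 197 in KO and 695 in WT. The median ratio, 4.06 in KO and 3.64 in WT, became 5.18 and 4.17 at that q, 3.62 and 3.53 at 50 reads, and 3.45 and 3.53 at 50 reads over both, where the order of the lists turned. It was 3.75 in WT without chromosomes 9 and 12, 3.92 and 3.40 with 1 read added, and 2.13 and 1.88 over expected reads. Divided by the chromosome's relative ratio of H3K27ac expected reads, added after seeing the data, it was 3.93 and 3.38. Merging within 2 kb gave median run lengths of 1984 bp in KO and 1617 bp in WT, 1.89 and 2.21 events per kb, and 30.1% and 39.6% of events in runs of 3 or more. Merging within 10 kb gave 7713 and 5355 bp, 0.642 and 0.859 events per kb, and 51.4% and 60.04%. At −log10 q 5 or more the values were 2263 bp in KO and 2802 bp in WT, 1.61 and 1.58 per kb, and 37.7% and 47.8%. The WT list thus had the shorter and denser runs at both merging distances, but the longer and less dense runs at the higher q, where the order turned; its share in runs was the larger under these 3 settings. Ratios of the 50 named runs stayed within their intervals without their largest event and with merging within 10 kb. Windows 10 kb wider, added after seeing the data, left the ratios of the 12 named loci with events within their intervals. Assignment of runs to genes with 5 kb added was not run, for want of an mm9 annotation. Depth limits the ratios most where the lower genotype has few reads.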

Other observations

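The WT list, which came from GEM, gives a short sequence for some events, and these are shown because they are the only sequences the list holds. The sequence gtggtgtg stood at 99 events (2.96%) and gttgtgtg at 60 (1.80%), and 3182 events (95.2%) had none. Median ratios were 3.43 and 3.48 at events with these sequences and 3.65 at events without one. How they were chosen is not given in the sources used here.

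The lower genotype had 0 reads at 31 H3K36me3 events, 4 in the KO list and 27 in the WT list. In KO the highest of these, at 80300458 on chromosome 16, had 65 reads, with a lower limit of the ratio of 29.8. In WT the highest lay in the window placed at Acta2, where 139.9 WT reads at 34325768 on chromosome 19 gave a lower limit of 22.1. An event at 54012768 on chromosome X had 74 WT reads and a lower limit of 11.5, and 1 at 84030331 on chromosome 6 had 72 and 11.2.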
